A study of Mus musculus with 12 samples.

Results

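Forkhead (Fox) genes encode transcription factors that share a DNA-binding domain. The family was taken as every gene symbol written as Fox, a subclass letter from a to s, a number and at most 1 further letter, which gave 44 of the 55228 symbols listed in both count tables. RNA came from wild-type, untreated CD-1 mouse embryos, all female, in 4 groups of 3 libraries: bladder mesenchyme at E18.5, urethral mesenchyme at E18.5, bladder mesenchyme at E14.5 and urethral mesenchyme at E14.5 (E, embryonic day). Each library held the pooled tissue of the female embryos of a litter, so a value is a mean over siblings, and a litter gave both compartments. The layers were parted by trypsin and forceps, which does not sort cells, and in such bulk tissue fewer cells of a type and less RNA per cell cannot be told apart. The study's stated aim was to find genes that mark each compartment.

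In the forkhead domain a short helix, the recognition helix, lies in the major groove of DNA and reads the target site. FoxF and FoxL1 factors act in the mesenchyme next to endoderm-derived epithelia, where Hedgehog ligands made by the epithelium induce them. FoxA factors open chromatin in endoderm, FoxO factors are held in the cytoplasm by insulin and AKT signalling, and FoxM1 drives genes of cell division.

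Library totals ranged from 21495169 to 36349777 counts, and 3 counts corresponded to 0.0825 to 0.1396 CPM on these unscaled totals. All other CPM values are reads of a gene relative to the scaled total of its library. All 10 mesenchymal marker genes passed the filter on low counts, with summed levels of 27722 to 33218 CPM in bladder E18.5, 16180 to 18211 CPM in urethral E18.5, 19414 to 25952 CPM in bladder E14.5 and 8120 to 12332 CPM in urethral E14.5 libraries. Markers of other cells were also present. The 20 epithelial markers summed to 11261 to 15013 CPM in bladder E18.5 and 4195 to 6258 CPM in urethral E18.5 libraries, against 348 to 1942 CPM in bladder E14.5 and 1008 to 2316 CPM in urethral E14.5 libraries. On the first principal component, replicate 1 of both E14.5 groups lay nearest to the E18.5 libraries of its compartment. Some results that rest on it are therefore given with and without it.

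Of the 44 forkhead genes, 30 passed the filter on low counts and 14 did not. Summed over the family, the level per kilobase of exon was 287 to 318 CPM in bladder E18.5, 280.4 to 305.3 CPM in urethral E18.5, 263 to 324 CPM in bladder E14.5 and 337 to 467 CPM in urethral E14.5 libraries. The leading gene differed between groups. Per kilobase, Foxa1 led in bladder E18.5 (52.2 ± 9.799 CPM, SD, n = 3), Foxf2 in urethral E18.5 (36.5 ± 7.58 CPM), and Foxf1 in both bladder E14.5 (83.6 ± 27.8 CPM) and urethral E14.5 (90.8 ± 14.9 CPM). In bladder E18.5, Foxa1 was followed by Foxq1 (40.3 ± 3.47 CPM per kilobase) and Foxf1 (32.0 ± 2.88), and Foxa1 was above Foxq1 in each of the 3 libraries. In urethral E18.5, Foxf2 was followed by Foxf1 (31.9 ± 5.21 CPM per kilobase), and in urethral E14.5 Foxf1 was followed by Foxf2 (69.2 ± 23.6). The order of that pair was the same in all 3 libraries of each of these groups. Foxp4, Foxo4 and Foxk2 were among the 7 highest genes in each of the 4 groups.

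**Figure D1:**
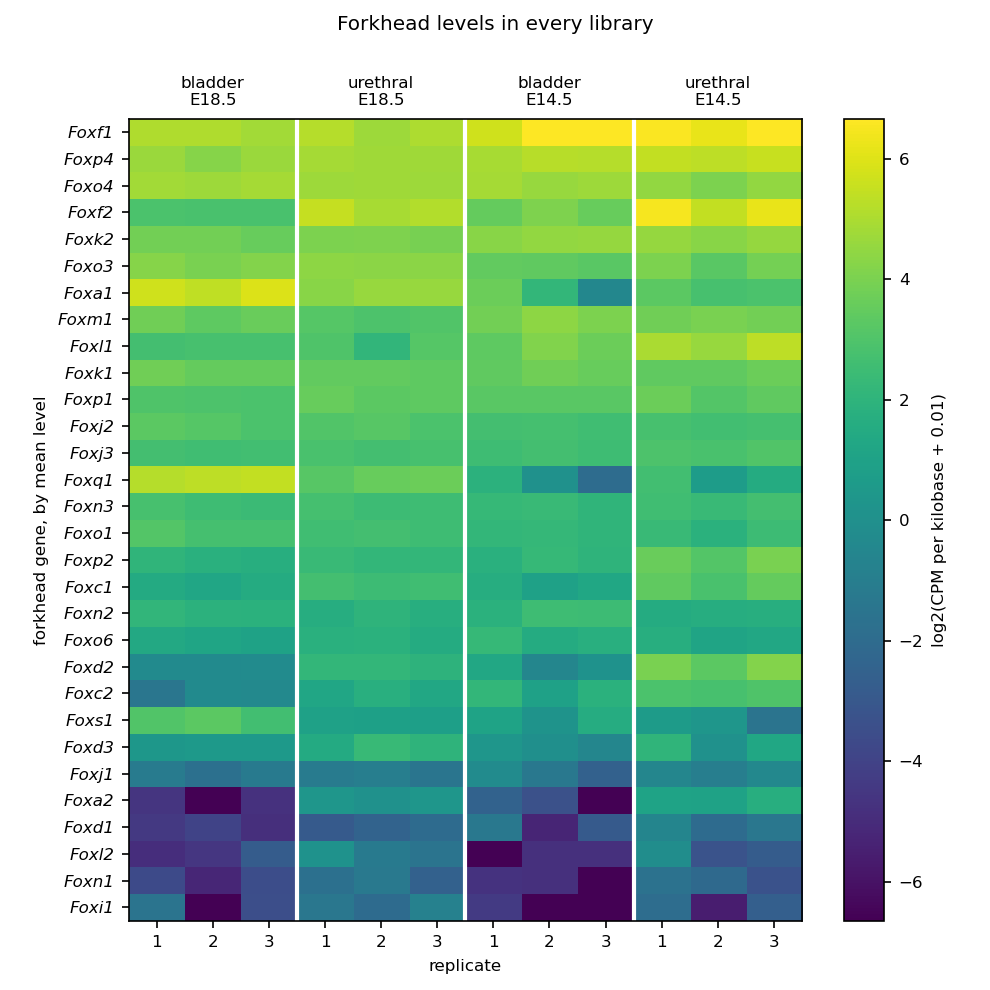
Level of each of the 30 forkhead genes that passed the filter (rows, by mean level) in each of the 12 libraries (columns, 3 replicates of each group), as log2 of CPM per kilobase plus 0.01. Foxf1 is bright in all libraries, Foxf2 is bright in the 6 urethral ones, and Foxa1 and Foxq1 are brightest in the 3 bladder E18.5 libraries.

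At both stages more forkhead genes were higher in urethral mesenchyme than in bladder mesenchyme. A gene is called where edgeR's quasi-likelihood test gives an adjusted p under 0.05, with p adjusted over all 18805 genes tested (Benjamini-Hochberg). At E18.5, 2 of the 30 tested members were called higher in bladder, against a background of 18.52% of all genes, and 9 were called higher in urethral mesenchyme, against 16.2% (either direction, 36.7% of members and 34.8% of all genes). At E14.5, 1 was called higher in bladder (background 12.4%) and 11 were called higher in urethral mesenchyme (background 12.5%; either direction, 40% of members and 24.9% of all genes). The median log2 difference of the tested members, bladder minus urethral, was -0.25 at E18.5 and -0.42 at E14.5, while over all genes tested it was 0.05 at E18.5 and -0.0035 at E14.5. Foxa2, Foxc1, Foxc2, Foxd2, Foxd3, Foxf2, Foxl2 and Foxn1, 8 in all, were called higher in urethral mesenchyme at both stages. The share of all genes called so at both stages was not computed. Of these, Foxa2, Foxl2 and Foxn1 passed the filter on low counts only through urethral libraries, with highest bladder counts of 9, 14 and 8. Genes so low in bladder could enter only if higher in urethral mesenchyme. Their direction was thus set in part by the filter, and they lend no support to the urethral counts. The count at E14.5 rests partly on bladder replicate 3, without which it was 7 in place of 11. Without bladder E14.5 replicate 1 or without bladder E14.5 replicate 3, the count higher in bladder at E18.5 was 4 in place of 2, and without urethral E18.5 replicate 2 it was 1.

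**Figure D2:**
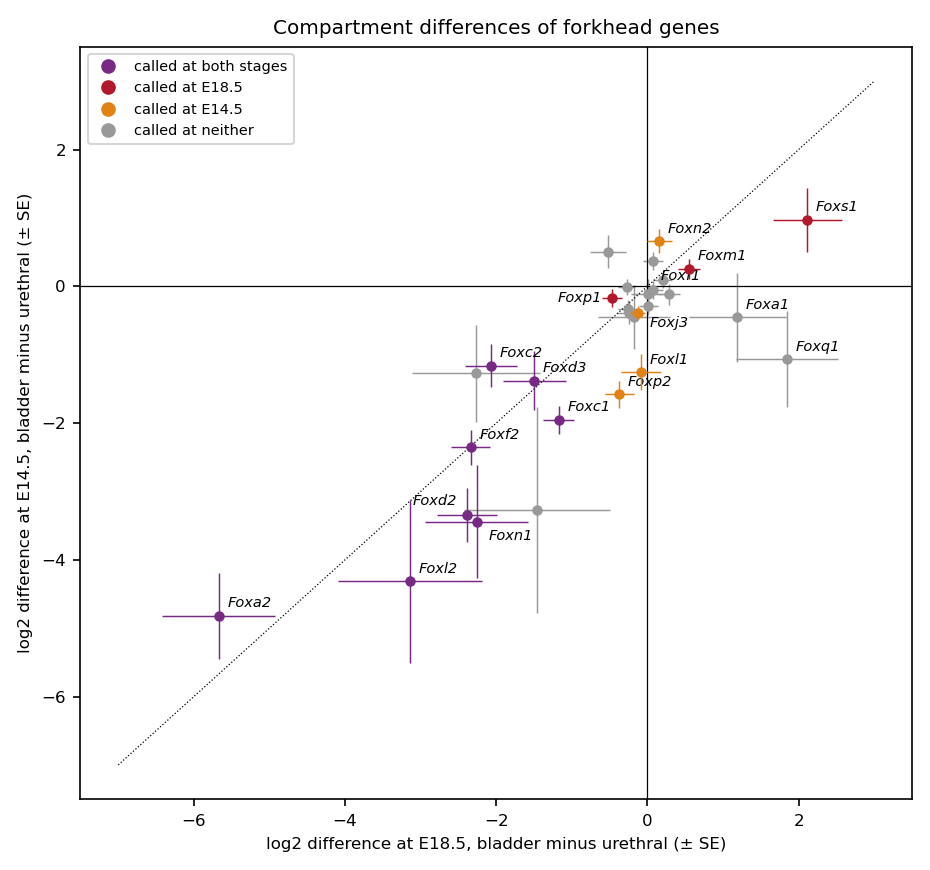
Log2 difference, bladder minus urethral mesenchyme, at E18.5 (horizontal axis) and at E14.5 (vertical axis) for the 30 tested forkhead genes, with SE bars and the line of equal difference dotted. Of the 12 called genes on the urethral side, Foxa2 lies farthest out (-5.67 at E18.5 and -4.82 at E14.5), and Foxp2 and Foxl1 lie below the dotted line, near 0 at E18.5.

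Between the stages, more forkhead genes were called lower than higher at E18.5 in urethral mesenchyme, while in bladder mesenchyme the counts of each direction were close. In bladder mesenchyme 7 of the 30 tested members were called higher at E18.5 (background 23.7%) and 9 were called lower (background 22%; either direction, 53.3% of members and 45.7% of all genes). In urethral mesenchyme 1 was called higher (background 13.6%) and 10 were called lower (background 10.8%; either direction, 36.7% of members and 24.4% of all genes). Foxf1, Foxf2, Foxl1, Foxc2, Foxk2, Foxm1 and Foxp4, 7 in all, fell in both compartments, and Foxo3 alone was called higher at E18.5 in both. The share of all genes called in both compartments was not computed. The median log2 difference, E18.5 minus E14.5, was -0.07 in bladder and -0.04 in urethral mesenchyme, beside -0.02 and -0.06 over all genes tested. The 2 stage comparisons use different libraries, but each shares its libraries with the compartment comparisons. With replicate 1 of both E14.5 groups left out, 6 members were called higher at E18.5 in urethral mesenchyme (Foxa1, Foxd3, Foxl2, Foxo3, Foxo4 and Foxq1), in place of 1.

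**Figure D3:**
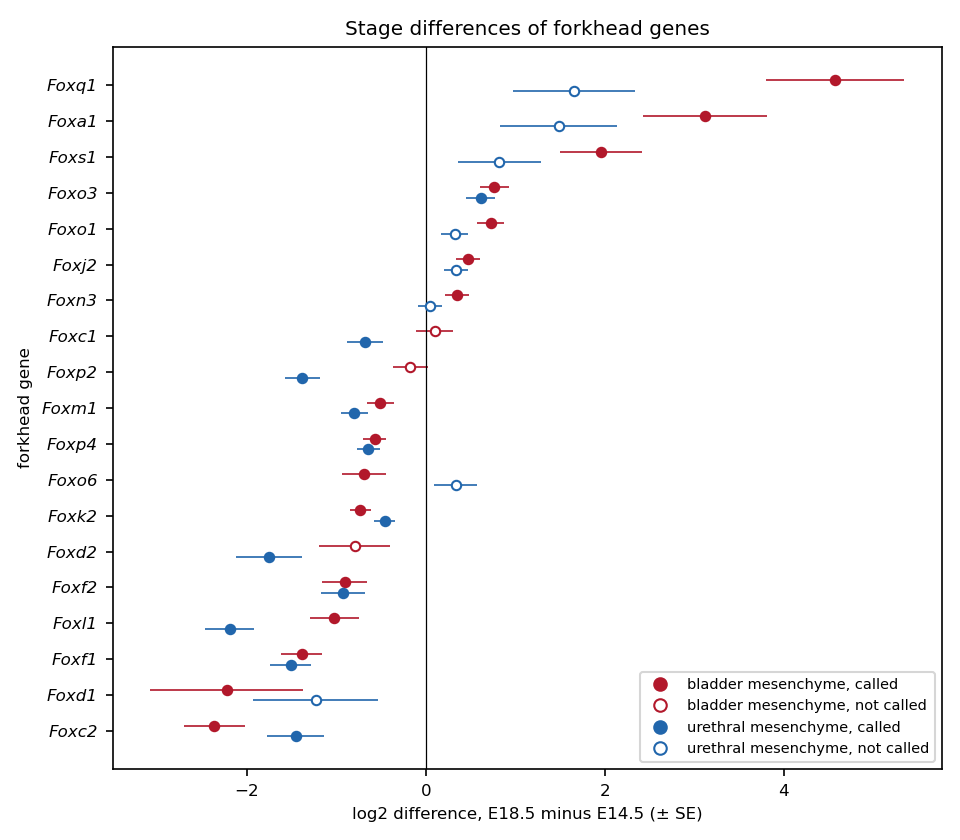
Log2 difference, E18.5 minus E14.5, with SE bars, for the 19 forkhead genes called in at least 1 compartment. Bladder mesenchyme is red and drawn above urethral mesenchyme in blue, and open points were not called. Foxq1 and Foxa1 lie farthest to the right in bladder mesenchyme (4.58 and 3.13), and Foxc2 farthest to the left (-2.36).

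The FoxF pair, mesenchymal factors needed for gut and lung mesoderm, behaved unlike each other between compartments. Foxf1 had 81.95, 80.6 and 69.3 CPM in bladder E18.5, 88.96, 63.9 and 77.96 CPM in urethral E18.5, 124, 245 and 236 CPM in bladder E14.5, and 236, 178 and 244 CPM in urethral E14.5 libraries. The E18.5 libraries of both compartments overlapped each other and lay below all E14.5 libraries. Between compartments the log2 difference of Foxf1 was 0.01 ± 0.23 at E18.5 (SE, adjusted p = 0.989) and -0.12 ± 0.23 at E14.5 (adjusted p = 0.732), neither called by edgeR. Between stages it fell by 1.39 ± 0.23 on the log2 scale in bladder (adjusted p = 0.000463) and by 1.51 ± 0.23 in urethral mesenchyme (adjusted p = 0.00114).

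Foxf2 differed between compartments at both stages. It had 17.6, 16.6 and 16.9 CPM in bladder E18.5 against 106, 70.6 and 82.02 CPM in urethral E18.5 libraries, and 27.5, 40.7 and 27.6 CPM in bladder E14.5 against 212, 103 and 176 CPM in urethral E14.5 libraries. Every urethral library was above every bladder library. The log2 difference was -2.34 ± 0.26 at E18.5 (adjusted p = 3.87e-05) and -2.35 ± 0.26 at E14.5 (adjusted p = 0.000143), 5.05-fold and 5.11-fold lower in bladder. Its stage difference was -0.91 ± 0.25 in bladder (adjusted p = 0.011) and -0.92 ± 0.24 in urethral mesenchyme (adjusted p = 0.0173), where the libraries of the 2 stages overlapped. The bladder call was lost without bladder E14.5 replicate 2 (-0.69, adjusted p = 0.0501), and the urethral call without urethral E18.5 replicate 2 or 3 or urethral E14.5 replicate 1 or 3 (adjusted p 0.0561 to 0.0747).

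Per kilobase of exon, the ratio of Foxf2 to Foxf1 was 0.227 ± 0.0201 (SD, n = 3) in bladder E18.5, 1.14 ± 0.0704 in urethral E18.5, 0.172 ± 0.0535 in bladder E14.5 and 0.748 ± 0.166 in urethral E14.5 libraries. The highest bladder ratio was 0.249 and the lowest urethral ratio 0.590. In urethral mesenchyme Foxf2 was above Foxf1 in each E18.5 library (ratios 1.21, 1.13 and 1.08) and below it in each E14.5 library (0.921, 0.590 and 0.735), while Foxf1 was several times the higher gene in bladder mesenchyme.

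Sequences of the recognition helix, the point of contact with DNA, are given for some of the members that moved. Each is a run of 30 coding bases from a GENCODE M21 transcript (GRCm38), 5′ to 3′, and capitals mark bases that differ from Foxf1. Runs were located by residues inside them: tryptophan, then valine, isoleucine or leucine before arginine and histidine, then leucine. A match was required at those places, so likeness there is fixed by the search. The position on the chromosome and the strand follow each name.
Foxf1 (chr8:121084672-121084701, plus strand): tggaagaactccgtgcgccacaacctgtcg
Foxf2 (chr13:31626509-31626538, plus strand): tggaagaactccgtgcgccacaacctCtcg
Foxl1 (chr8:121128238-121128267, plus strand): tggCagaacAGcAtCcgccacaacctgtcg
Foxc1 (chr13:31807571-31807600, plus strand): tggCagaacAGcAtAcgGcacaacctCtcg
Foxc2 (chr8:121116957-121116986, plus strand): tggCagaacAGcAtCcgccacaacctgtcA
Foxd2 (chr4:114908276-114908305, minus strand): tggCagaaTAGcAtCcgccacaacctCtcC
Foxq1 (chr13:31559391-31559420, plus strand): tggCGCaactccgtgcgccacaacctCtcg

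Foxf2 differed from Foxf1 in 1 base of the 30 and in 0 of the 10 encoded residues, so the pair with unlike compartment patterns encodes the same stretch. That is not particular to the pair, since Foxn1, Foxn2, Foxn3 and Foxn4 encode the same 10 residues. Foxl1, Foxc1, Foxc2 and Foxd2 each differed from Foxf1 in 2 encoded residues and share 1 stretch of residues with 12 other members, among them Foxd3, Foxs1, Foxk1 and Foxk2. Foxq1 differed from Foxf1 in 1 residue. The stretch was found in 43 of the 44 members, in 11 different versions, and was not found in Foxr1.

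Foxf1, Foxc2 and Foxl1 lie in a row on chromosome 8, with 28.0 kb between Foxf1 and Foxc2 and 9.0 kb between Foxc2 and Foxl1. Foxl1, a mesenchymal factor of the gut and a Hedgehog target there, had 17.1, 18.4 and 18.53 CPM in bladder E18.5, 21.5, 11.8 and 23.9 CPM in urethral E18.5, 27.6, 47.1 and 35.03 CPM in bladder E14.5, and 85.4, 65.9 and 111 CPM in urethral E14.5 libraries. The 3 urethral E14.5 libraries were above all others. The compartment difference was -0.08 ± 0.27 at E18.5 (adjusted p = 0.846, groups overlapping) and -1.26 ± 0.27 at E14.5 (adjusted p = 0.0061). Foxl1 fell by 1.02 ± 0.27 on the log2 scale in bladder (adjusted p = 0.00859) and by 2.19 ± 0.28 in urethral mesenchyme (adjusted p = 0.000439). The change of its compartment difference between stages was 1.17 ± 0.38 and missed the threshold (adjusted p = 0.0765), while DESeq2 called it (1.15, adjusted p = 0.0323).

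Foxc2, which acts in mesoderm, blood and lymph vessels and kidney, was lower in bladder at both stages and fell with stage in both compartments. It had 1.01, 2.25 and 2.08 CPM in bladder E18.5 against 6.27, 9.14 and 6.95 CPM in urethral E18.5 libraries, and 12.1, 5.39 and 9.903 CPM in bladder E14.5 against 20.6, 18.499 and 22.1 CPM in urethral E14.5 libraries. Compartments did not overlap at either stage. The log2 difference was -2.07 ± 0.34 at E18.5 (adjusted p = 0.000525) and -1.16 ± 0.32 at E14.5 (adjusted p = 0.0194). The E14.5 call was lost without bladder E14.5 replicate 2 or 3 or urethral E14.5 replicate 3 (adjusted p 0.0513 to 0.0635). From E14.5 to E18.5 Foxc2 fell by 2.36 ± 0.34 in bladder (adjusted p = 0.000178) and by 1.45 ± 0.32 in urethral mesenchyme (adjusted p = 0.00675).

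A second row lies on chromosome 13, with Foxq1 64.8 kb from Foxf2 and Foxf2 175.2 kb from Foxc1. Foxc1, a relative of Foxc2 with shared roles in mesoderm and vessels, had 16.3, 13.5 and 17.2 CPM in bladder E18.5 against 38.2, 32.5 and 35.2 CPM in urethral E18.5 libraries, and 18.51, 11.4 and 14.01 CPM in bladder E14.5 against 62.6, 41.4 and 65.9 CPM in urethral E14.5 libraries. All urethral libraries were above all bladder libraries, with log2 differences of -1.17 ± 0.20 at E18.5 (adjusted p = 0.000757) and -1.95 ± 0.21 at E14.5 (adjusted p = 0.000113). In bladder mesenchyme the stage difference was 0.10 ± 0.20 (adjusted p = 0.714), and in urethral mesenchyme Foxc1 fell by 0.68 ± 0.20 (adjusted p = 0.0267). That call was lost without urethral E18.5 replicate 2 or 3 or urethral E14.5 replicate 1 or 3 (adjusted p 0.0691 to 0.117).

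Of the 12 endothelial markers, 0 were called higher and 5 lower in bladder at E18.5 (41.7% in either direction, against 34.8% of all genes). They summed to 399 to 528 CPM in bladder and 681 to 780 CPM in urethral E18.5 libraries. At E14.5, 2 were called higher and 0 lower in bladder, a share below that of all genes (16.7% against 24.9%). Sums there overlapped, at 520.3 to 942.0 CPM in bladder and 414 to 613 CPM in urethral libraries. Foxc1 and Foxc2 were lower in bladder at both stages; the part of vessel cells in their levels was not tested.

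Foxd2, a forkhead gene of mesenchyme near the kidney and of facial mesenchyme, was among the genes with the widest difference between compartments. It had 2.09, 2.15 and 2.18 CPM in bladder E18.5 against 11.8, 11.7 and 10.2 CPM in urethral E18.5 libraries, and 6.63, 1.74 and 2.81 CPM in bladder E14.5 against 40.6, 25.6 and 47.2 CPM in urethral E14.5 libraries. The compartments did not overlap at either stage. The log2 difference was -2.39 ± 0.40 at E18.5 (adjusted p = 0.00059) and -3.35 ± 0.40 at E14.5 (adjusted p = 0.000227). Without bladder E14.5 replicate 1, the highest of its group, the E14.5 difference was -4.07. In urethral mesenchyme Foxd2 fell by 1.75 ± 0.37 between the stages (adjusted p = 0.00591), and in bladder the stage difference was -0.79 ± 0.40 (adjusted p = 0.122). Its noncoding neighbour Foxd2os had log2 differences of -2.48 ± 0.43 at E18.5 (adjusted p = 0.000792) and -2.99 ± 0.43 at E14.5 (adjusted p = 0.000615).

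**Figure D4:**
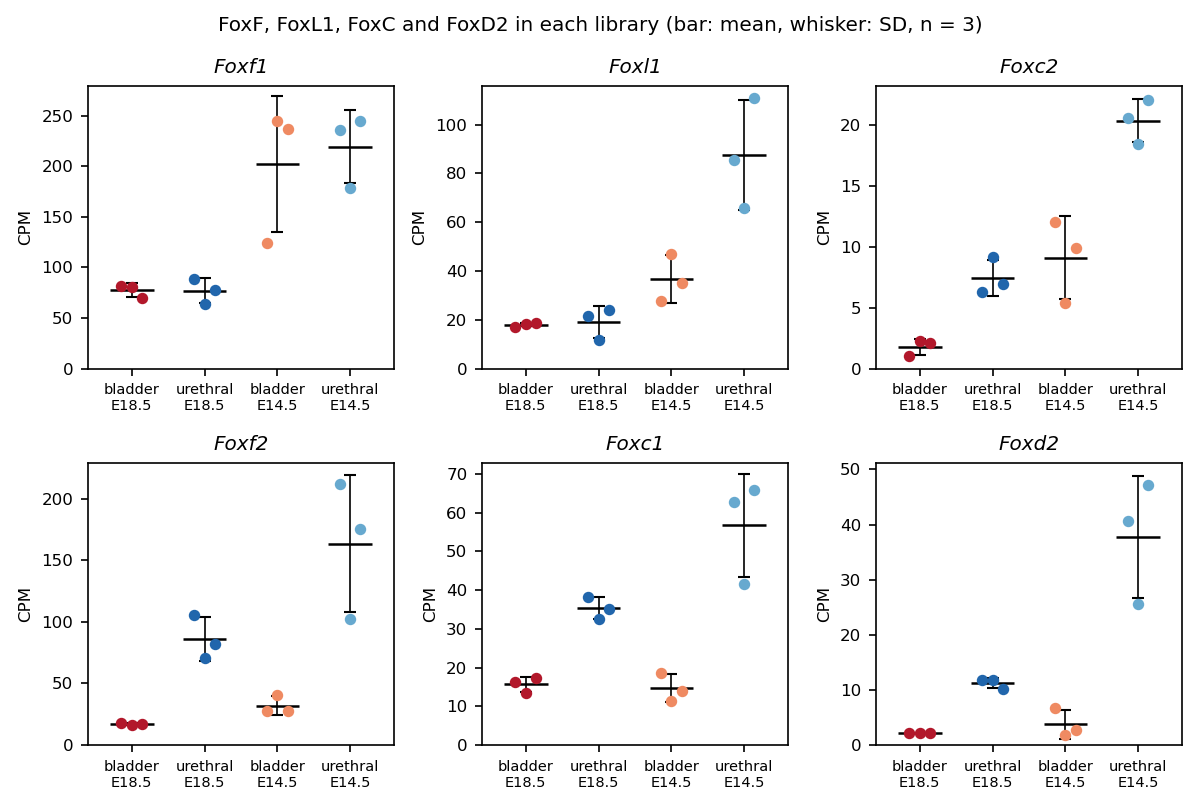
CPM of Foxf1, Foxl1, Foxc2, Foxf2, Foxc1 and Foxd2 in each library (points), with the group mean as a bar and the SD as a whisker (n = 3 each), on linear axes from 0. For Foxf2, Foxc1 and Foxd2 all urethral points lie above all bladder points, while for Foxf1 the 2 compartments overlap and E14.5 lies above E18.5.

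RefSeq promoter sequences (GRCm38.p6) were at hand for 28 of the 44 members, in 33 windows. Those of Foxf2, Foxc1 and Foxd2 are shown as examples of genes called lower in bladder at both stages, and were chosen after their values were seen. Foxa2, Foxd3, Foxl2 and Foxn1 were called so too and had windows, which are not shown. Each run holds the 250 bases before the start of the transcript, 5′ to 3′ on the gene's strand. Capitals mark matches, on either strand, to GGGCGG, the core of the SP1 site, and to CCAAT.
Foxf2 (chr13:31625566-31625815, plus strand): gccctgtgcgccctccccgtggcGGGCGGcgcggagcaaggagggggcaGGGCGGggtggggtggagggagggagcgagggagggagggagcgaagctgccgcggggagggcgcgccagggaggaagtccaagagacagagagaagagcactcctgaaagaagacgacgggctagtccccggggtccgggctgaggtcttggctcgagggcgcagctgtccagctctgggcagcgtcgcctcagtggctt
Foxc1 (chr13:31806396-31806645, plus strand): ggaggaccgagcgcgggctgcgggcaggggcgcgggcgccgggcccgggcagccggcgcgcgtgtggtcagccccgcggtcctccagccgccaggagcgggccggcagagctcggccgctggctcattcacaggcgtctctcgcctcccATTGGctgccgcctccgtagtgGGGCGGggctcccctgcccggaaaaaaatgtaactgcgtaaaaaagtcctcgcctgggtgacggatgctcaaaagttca
Foxd2 (chr4:114908899-114909148, minus strand): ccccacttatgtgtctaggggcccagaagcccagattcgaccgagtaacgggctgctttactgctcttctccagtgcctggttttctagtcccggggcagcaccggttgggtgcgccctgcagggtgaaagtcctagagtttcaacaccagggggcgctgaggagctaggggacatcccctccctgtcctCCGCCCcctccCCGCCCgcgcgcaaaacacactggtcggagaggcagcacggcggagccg

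The last 13 bases of the Foxc1 window lie in exon bases of the deposited gene model. GGGCGG was in 69.7% of the forkhead windows and in 32.74% of all 32851 promoter windows of the same length, and CCAAT in 42.42% against 33.85%. The binding letters of Gli factors, which carry the Hedgehog signal, GACCACCCA, were in 0 of the 33 forkhead windows and in 0.2253% of all windows. The forkhead site TGTTTAC was in 3.03% of the forkhead windows, that of Foxa1, and in 3.166% of all windows. Median GC content was 62% in the forkhead windows and 52.4% in all. These matches describe the letters only.

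Of the 14 genes of the Hedgehog pathway, which induces FoxF and FoxL1 genes in other organs, 0 were called higher and 1 lower in bladder at E18.5 (7.14% in either direction, against 34.8% of all genes), and 2 higher and 4 lower at E14.5 (42.9% against 24.9%). The median log2 difference of the list was -0.07 at E18.5 and 0.02 at E14.5. Among the 4, the ligand gene Shh averaged 15.6 ± 14.7 CPM in bladder and 59.0 ± 5.27 CPM in urethral E14.5 libraries (log2 difference -1.92, adjusted p = 0.0321), and the target Hhip differed by -1.26 (adjusted p = 0.00224). Ptch1, the receptor and a target, was the most abundant member not called, with 253 ± 99.4 CPM in bladder and 366 ± 65.2 CPM in urethral E14.5 libraries. Between stages 2 were called higher and 7 lower at E18.5 in bladder (64.3% against 45.7% of all genes), and 3 higher and 7 lower in urethral mesenchyme (71.4% against 24.4%), with median log2 differences of -0.51 and -0.34. In urethral mesenchyme Ptch1 fell (-1.29, adjusted p = 0.00369). In bladder Shh was 3.09 higher on the log2 scale at E18.5 (133 ± 33.2 against 15.6 ± 14.7 CPM, adjusted p = 0.00161) while Gli3 fell (-0.89, adjusted p = 0.00374). Shh is an epithelial gene in this organ, and the epithelial marker sum was higher at E18.5 in bladder as given above; its part was not tested.

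Of 13 genes described as FoxF or FoxL1 targets in gut and lung mesenchyme, 4 were called higher and 6 lower in bladder at E18.5 (76.9% in either direction, against 34.8% of all genes), and 5 higher and 3 lower at E14.5 (61.5% against 24.9%). The ligand gene Wnt5a was lower in bladder at both stages (-1.75 at E18.5, adjusted p = 0.000197, and -2.32 at E14.5, adjusted p = 0.000142), and Wnt2 was higher (1.63, adjusted p = 0.000411, and 2.00, adjusted p = 0.000331). Myocd, a coactivator of smooth muscle genes, was 2.54 higher on the log2 scale in bladder at E18.5 (101 ± 40.3 against 17.3 ± 2.64 CPM, adjusted p = 0.000175). Fendrr, a noncoding RNA beside Foxf1, was 1.73 lower in bladder at E14.5 (33.2 ± 5.61 against 110 ± 77.3 CPM, adjusted p = 0.0101), with 199 CPM in urethral E14.5 replicate 2 alone. Between stages 3 of the 13 were called higher and 6 lower at E18.5 in bladder (69.2% against 45.7% of all genes), led by the Wnt antagonist Sfrp1 (-1.75, adjusted p = 1.68e-05), and 3 higher and 3 lower in urethral mesenchyme (46.2% against 24.4%). The median log2 difference of the list was -0.63 between compartments at E18.5 and 0.16 at E14.5, and between stages -0.50 in bladder and -0.15 in urethral mesenchyme.

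Foxd3, a factor of neural crest and its glial descendants, was also higher in urethral mesenchyme. It had 3.06, 3.33 and 3.36 CPM in bladder E18.5 against 6.597, 11.6 and 9.35 CPM in urethral E18.5 libraries (log2 difference -1.50 ± 0.42, adjusted p = 0.0142), with no overlap. At E14.5 it had 2.97, 2.24 and 1.56 CPM in bladder against 9.57, 2.46 and 5.65 CPM in urethral libraries, which overlapped (-1.38 ± 0.43, adjusted p = 0.0335). The E18.5 call was lost without urethral E18.5 replicate 2 (adjusted p = 0.0552). The E14.5 call was lost in 7 of 20 alternatives. These were without bladder E14.5 replicate 2 or 3 (adjusted p 0.0856 and 0.126), without urethral E14.5 replicate 1 (-0.84, adjusted p = 0.138) or 3 (adjusted p = 0.0689), with replicate 1 of both E14.5 groups left out (-1.10, adjusted p = 0.0728), with limma-voom (-1.14, adjusted p = 0.117) and with only the libraries compared (adjusted p = 0.0863).

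The 9 Schwann cell and glial markers moved with Foxd3. In bladder 0 were called higher and 7 lower at E18.5 (77.8% in either direction, against 34.8% of all genes). Sums were 181 to 218 CPM in bladder and 269.8 to 447.8 CPM in urethral E18.5 libraries. At E14.5, 0 were higher and 6 lower (66.7% against 24.9%), with sums of 56.4 to 125 CPM in bladder and 156.6 to 248.9 CPM in urethral libraries. Neuronal markers did so too, with 0 of 12 higher and 12 lower in bladder at E18.5 (100% against 34.8%). At E14.5, 0 were higher and 11 lower (91.7% against 24.9%). The part of glial and nerve cells in the Foxd3 level was not tested.

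The FoxA genes and Foxq1 are epithelial forkhead genes, and of the 3 measured here Foxa1 and Foxq1 were highest in bladder E18.5 while Foxa2 was a urethral gene. Foxa1, expressed in urothelium, had 176, 139.8 and 205 CPM in bladder E18.5, 65.7, 80.5 and 82.3 CPM in urethral E18.5, 42.3, 15.1 and 2.34 CPM in bladder E14.5, and 33.3, 23.4 and 24.9 CPM in urethral E14.5 libraries. All bladder E18.5 libraries were above all others, and bladder E14.5 spread widely. In bladder Foxa1 was 3.13 ± 0.69 higher on the log2 scale at E18.5 (8.73-fold, adjusted p = 0.00385), and 4.32 without bladder E14.5 replicate 1. In urethral mesenchyme the stage difference was 1.49 ± 0.65 (adjusted p = 0.122), with the stages not overlapping. The compartment difference was 1.19 ± 0.64 at E18.5 (adjusted p = 0.185) and -0.45 ± 0.65 at E14.5 (adjusted p = 0.645). Without bladder E14.5 replicate 1 the E14.5 difference was called (-1.65, adjusted p = 0.0378), but with replicate 1 of both E14.5 groups left out it was not. With replicate 1 of both E14.5 groups left out, which changes the estimate of the spread, the E18.5 difference was called (1.19, adjusted p = 0.0361), and so was the stage difference in urethral mesenchyme (1.65, adjusted p = 0.023).

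Foxq1, known from epithelia, had 178, 196 and 212 CPM in bladder E18.5, 44.2, 57.4 and 61.1 CPM in urethral E18.5, 18.4, 5.10 and 1.21 CPM in bladder E14.5, and 29.5, 8.01 and 14.2 CPM in urethral E14.5 libraries. The 3 bladder E18.5 libraries stood far above the rest. Foxq1 was 4.58 ± 0.77 higher on the log2 scale at E18.5 in bladder (23.8-fold, adjusted p = 0.000774), and 5.95 without bladder E14.5 replicate 1. In urethral mesenchyme the stage difference was 1.66 ± 0.68 (adjusted p = 0.103). At E18.5 the compartment difference was 1.85 ± 0.68 (adjusted p = 0.0561), with no overlap, and at E14.5 -1.07 ± 0.70 (adjusted p = 0.29). Without bladder E14.5 replicate 1 the E14.5 difference was called (-2.45, adjusted p = 0.0102). With replicate 1 of both E14.5 groups left out the E14.5 difference was called too (-1.81, adjusted p = 0.0122). With the replicate number as a block, which pairs the E18.5 libraries, the E18.5 difference was called (1.86, adjusted p = 0.00651). Without pairing it was called with limma-voom (1.86, adjusted p = 0.00146) and with only the libraries compared (1.79, adjusted p = 3.04e-05). It was also called with replicate 1 of both E14.5 groups left out (1.85, adjusted p = 0.000728), but not with DESeq2. The opposite-strand transcript A530084C06Rik covers 66.07% of the exon bases of Foxq1 and had 1.61 to 2.34 CPM in bladder E18.5 and 4.18 to 7.18 CPM in urethral E18.5 libraries, so reads of the pair may be mixed where strand was not used in counting.

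Foxa2, a factor of endoderm and floor plate, ran the other way. It had 0.0747, 0 and 0.0640 CPM in bladder E18.5 against 3.04, 2.46 and 3.01 CPM in urethral E18.5 libraries, and 0.411, 0.207 and 0 CPM in bladder E14.5 against 5.03, 4.87 and 7.75 CPM in urethral E14.5 libraries. All urethral libraries were above all bladder libraries, and 2 bladder libraries held no count, with 4 counts summed over bladder E18.5 and 14 over bladder E14.5. The log2 difference was -5.67 ± 0.75 at E18.5 (adjusted p = 0.000113) and -4.82 ± 0.63 at E14.5 (adjusted p = 0.000345), and -5.76 at E14.5 without bladder replicate 1. Between stages it was not called in bladder (-1.90 ± 0.94, adjusted p = 0.117) or in urethral mesenchyme (-1.05 ± 0.49, adjusted p = 0.137).

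**Figure D5:**
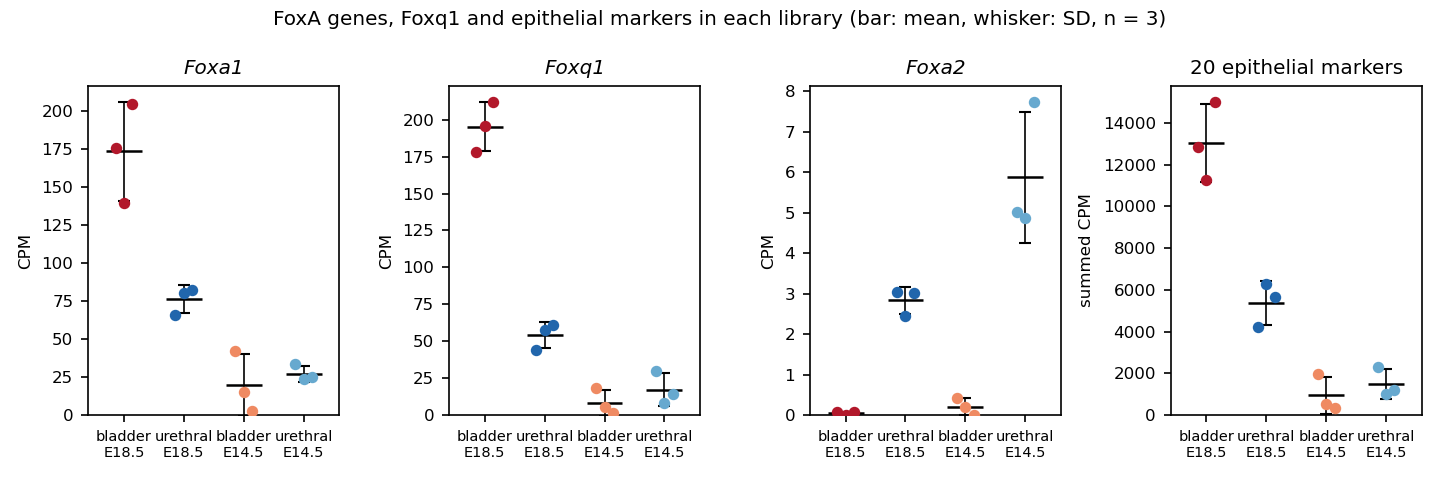
CPM of Foxa1, Foxq1 and Foxa2 and the summed CPM of 20 epithelial markers in each library (points), with group means as bars and SD as whiskers (n = 3 each), on linear axes from 0. Foxa1, Foxq1 and the marker sum are highest in bladder E18.5, while Foxa2 is near 0 there and highest in urethral E14.5.

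All 20 epithelial markers were called higher at E18.5 in bladder (100%, against 45.7% of all genes in either direction). In urethral mesenchyme 10 of them were (50% against 24.4%), and 0 were lower in either compartment. Per 1000 CPM of epithelial markers, Foxa1 had 12.4 to 13.7 CPM in bladder E18.5 and 12.9 to 15.7 CPM in urethral E18.5 libraries, against 6.70 to 28.2 CPM in bladder E14.5 and 14.4 to 23.2 CPM in urethral E14.5 libraries. On that scale the Foxa1 values of the 2 compartments overlapped at each stage. Foxq1 had 13.9 to 17.4 CPM in bladder E18.5 and 9.17 to 10.8 CPM in urethral E18.5, 3.48 to 9.51 CPM in bladder E14.5 and 7.94 to 12.8 CPM in urethral E14.5 libraries, so bladder E18.5 stayed highest. Foxa2 had at most 0.00583 CPM in bladder E18.5 and 0.393 to 0.726 CPM in urethral E18.5, at most 0.387 CPM in bladder E14.5 and 2.17 to 6.57 CPM in urethral E14.5 libraries. The urethral libraries thus stayed above the bladder libraries for Foxa2 at each stage. The part of epithelial cells in the levels of these 3 genes was not tested.

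In the FoxP subclass, repressors with roles in lung, heart and nervous system, Foxp2 was the member whose compartment difference was called by edgeR as changed between the stages. It had 68.1, 57.4 and 52.6 CPM in bladder E18.5, 85.1, 71.9 and 73.02 CPM in urethral E18.5, 56.6, 77.9 and 65.9 CPM in bladder E14.5, and 199, 143 and 258 CPM in urethral E14.5 libraries. The urethral E14.5 libraries stood above all others. The compartment difference was -0.37 ± 0.19 at E18.5 (adjusted p = 0.165) and -1.58 ± 0.20 at E14.5 (adjusted p = 0.000263), and its change was 1.21 ± 0.27 (adjusted p = 0.0179). Over all genes tested the difference changed in 8.67%, with 4.64% in this direction and 4.03% in the other, and among the 30 members in 1 and 0 by edgeR (4 and 1 at an unadjusted p under 0.05; by DESeq2, 2 and 1). Without bladder E14.5 replicate 1, 5 members changed in this direction (Foxa1, Foxc1, Foxd2, Foxp2 and Foxq1) and 1 in the other (Foxn2). The replicate number as a block within both stages gave calls for Foxp2, Foxc1 (0.77) and Foxq1 (3.25). Foxo6 was then called in the other direction (-1.01). In urethral mesenchyme Foxp2 fell by 1.38 ± 0.20 (adjusted p = 0.000702), and in bladder the stage difference was -0.17 ± 0.19 (adjusted p = 0.494).

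Per kilobase, the ratio of Foxp2 to Foxp1 was 1.15 ± 0.3004 (SD, n = 3) in urethral E14.5 libraries and 0.471 ± 0.0446 in bladder E18.5, 0.441 ± 0.00387 in urethral E18.5 and 0.4295 ± 0.0670 in bladder E14.5 libraries. Foxp1 itself had 110.1, 105 and 102 CPM in bladder E18.5 against 161, 137 and 141 CPM in urethral E18.5 libraries (-0.47 ± 0.13, adjusted p = 0.0137), and 130.2, 131 and 131 CPM in bladder E14.5 against 177, 119 and 145 CPM in urethral E14.5 libraries (-0.17 ± 0.13, adjusted p = 0.362). The E18.5 call was lost without urethral E18.5 replicate 1 (adjusted p = 0.0662). Foxp4 had 125, 93.2 and 125 CPM in bladder E18.5, 143, 134 and 133 CPM in urethral E18.5, 149, 182 and 179 CPM in bladder E14.5, and 212, 199 and 229.8 CPM in urethral E14.5 libraries. It fell in both compartments, by 0.57 ± 0.13 in bladder (adjusted p = 0.00343) and by 0.64 ± 0.13 in urethral mesenchyme (adjusted p = 0.00466), with no overlap between stages, and its compartment differences were not called.

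Among the FoxO genes, factors of metabolism and cell cycle arrest, Foxo3 and Foxo1 were higher at E18.5. Foxo3 had 144, 120.5 and 137 CPM in bladder E18.5, 162, 156 and 156 CPM in urethral E18.5, 83.2, 80.97 and 71.9 CPM in bladder E14.5, and 123, 73.5 and 113 CPM in urethral E14.5 libraries. Stages did not overlap in either compartment, and the rise was 0.77 ± 0.16 in bladder (adjusted p = 0.00205) and 0.61 ± 0.16 in urethral mesenchyme (adjusted p = 0.0162). Foxo1 had 74.3, 57.1 and 58.6 CPM in bladder E18.5, 51.4, 55.1 and 49.4 CPM in urethral E18.5, 38.5, 39.9 and 36.5 CPM in bladder E14.5, and 44.7, 31.8 and 48.02 CPM in urethral E14.5 libraries. It was 0.72 ± 0.15 higher at E18.5 in bladder (adjusted p = 0.00214) and 0.33 ± 0.15 in urethral mesenchyme (adjusted p = 0.139). Whether the 2 compartments differ in this was tested and missed the threshold (0.40 ± 0.22, adjusted p = 0.283).

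Foxo6 had 6.84, 5.95 and 5.31 CPM in bladder E18.5, 9.06, 9.38 and 7.51 CPM in urethral E18.5, 12.8, 7.58 and 8.91 CPM in bladder E14.5, and 8.43, 5.599 and 6.57 CPM in urethral E14.5 libraries. It was the FoxO gene that fell, by 0.69 ± 0.24 in bladder (adjusted p = 0.0338), a call lost without bladder E14.5 replicate 1 (-0.44, adjusted p = 0.156), bladder E14.5 replicate 3 or bladder E18.5 replicate 2 or 3. Foxo4, the most abundant FoxO gene per kilobase in all groups, averaged 97.6 ± 5.23 CPM in bladder E18.5, 92.9 ± 3.15 CPM in urethral E18.5, 93.5 ± 8.39 CPM in bladder E14.5 and 72.1 ± 13.1 CPM in urethral E14.5 libraries (SD, n = 3 each), and was called in 0 of the 5 comparisons.

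Of 20 genes described as FoxO targets, 19 were tested, and 12 were called higher and 2 lower at E18.5 in bladder (73.7% in either direction, against 45.7% of all genes; median log2 difference 0.64), and 8 higher and 1 lower in urethral mesenchyme (47.4% against 24.4%; median 0.50). In bladder the cell cycle inhibitor Cdkn1a was 3.16 higher (65.3 ± 9.25 against 7.31 ± 3.21 CPM, adjusted p = 0.000315), Pdk4, which slows glucose oxidation, 2.95 higher (44.5 ± 8.87 against 5.75 ± 0.760 CPM, adjusted p = 8.97e-06) and the ubiquitin ligase gene Fbxo32 2.00 higher (adjusted p = 0.0011). In urethral mesenchyme Cdkn1a (2.55, adjusted p = 0.00291), the death ligand gene Tnfsf10 (2.45, adjusted p = 0.000836) and Trim63 (2.34, adjusted p = 0.001) led. Between compartments 4 were called higher and 6 lower in bladder at E18.5 (52.6% against 34.8% of all genes), and 2 higher and 4 lower at E14.5 (31.6% against 24.9%).

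Of 15 genes listed for insulin, PI3K and AKT signalling, 9 were called higher and 3 lower at E18.5 in bladder (80% in either direction, against 45.7% of all genes). Their median log2 difference was 0.48, and Pik3cb led (1.68, adjusted p = 0.000103). The list held Pdk1, a pyruvate dehydrogenase kinase gene and not the AKT kinase gene Pdpk1, so the counts and shares include a gene from outside this pathway. In urethral mesenchyme 3 were called higher and 0 lower (20% against 24.4%, median 0.07). They were Pdk1 (0.93, adjusted p = 0.00517), Sgk1 (0.86, adjusted p = 0.0078) and Irs1 (0.50, adjusted p = 0.0388). Between compartments 1, Pdk1, was called higher and 2 lower in bladder at E18.5 (20% against 34.8%). At E14.5, 3 were called higher and 5 lower (53.3% against 24.9%).

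Foxm1, the forkhead driver of the G2 and M phases, fell between the stages and was higher in bladder at E18.5. It had 79.2, 59.4 and 71.6 CPM in bladder E18.5 against 51.2, 44.1 and 48.2 CPM in urethral E18.5 libraries (0.55 ± 0.15, adjusted p = 0.0113), and 82.6, 121 and 95.2 CPM in bladder E14.5 against 77.9, 89.7 and 82.02 CPM in urethral E14.5 libraries (0.26 ± 0.15, adjusted p = 0.216). The E18.5 compartments did not overlap. It fell by 0.51 ± 0.15 in bladder (adjusted p = 0.0137) and by 0.80 ± 0.15 in urethral mesenchyme (adjusted p = 0.00286). The compartment call was lost without urethral E18.5 replicate 2 (adjusted p = 0.0503), and the bladder stage call without bladder E18.5 replicate 2 or bladder E14.5 replicate 2 (adjusted p 0.0601 and 0.0729).

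The 15 mitotic genes described as FoxM1 targets were mostly lower at E18.5, with 0 called higher and 11 lower in bladder (73.3% in either direction, against 45.7% of all genes; median log2 difference -0.88) and 0 higher and 15 lower in urethral mesenchyme (100% against 24.4%; median -0.84). In bladder Skp2 fell by 2.18 (27.0 ± 2.35 against 122 ± 31.6 CPM, adjusted p = 7.87e-06) and Cks1b by 1.37 (adjusted p = 6.01e-06), both of the machinery that degrades a cell cycle inhibitor, and Birc5, a chromosomal passenger gene, by 1.17 (adjusted p = 4.49e-05). In urethral mesenchyme Skp2 (-1.17, adjusted p = 0.00104), the mitotic cyclin gene Ccnb1 (-1.09, adjusted p = 0.000286) and Cdc25c (-1.06, adjusted p = 0.000355) led. Between compartments 10 were called higher and 1 lower in bladder at E18.5 (73.3% against 34.8%), led by the mitotic kinase gene Plk1 (0.93, adjusted p = 0.000442), and 8 higher and 0 lower at E14.5 (53.3% against 24.9%), led by Birc5 (0.76, adjusted p = 0.00214). Top2a, the most abundant gene not called between compartments, had 262 ± 34.8 CPM in bladder and 214 ± 19.8 CPM in urethral E18.5 libraries.

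Foxs1, known from pericytes and smooth muscle near vessels, was the other gene called higher in bladder at E18.5. It had 11.02, 12.9 and 8.13 CPM in bladder E18.5, 2.54, 2.46 and 2.396 CPM in urethral E18.5, 2.74, 1.49 and 3.98 CPM in bladder E14.5, and 2.04, 1.67 and 0.441 CPM in urethral E14.5 libraries. The 3 bladder E18.5 libraries were above all others. The compartment difference was 2.11 ± 0.46 at E18.5 (adjusted p = 0.00319) and 0.97 ± 0.47 at E14.5 (adjusted p = 0.147), and in bladder Foxs1 was 1.96 ± 0.46 higher at E18.5 (adjusted p = 0.00395). The 10 smooth muscle markers were also highest there, with sums of 23517 to 43538 CPM in bladder E18.5, 2616 to 2919 CPM in urethral E18.5, 6567 to 8628 CPM in bladder E14.5 and 1726 to 3676 CPM in urethral E14.5 libraries. All 10 were called higher in bladder at E18.5 (100% in either direction, against 34.8% of all genes). Within bladder 9 were called higher at E18.5 (90% against 45.7%). The part of smooth muscle cells in the Foxs1 level was not tested.

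Of the FoxK, FoxJ and FoxN genes, Foxk2, Foxj2, Foxj3, Foxn1, Foxn2 and Foxn3 were called in at least 1 comparison. Foxk2, a regulator of metabolism and autophagy, fell by 0.73 ± 0.12 in bladder (adjusted p = 0.000335) and by 0.46 ± 0.12 in urethral mesenchyme (adjusted p = 0.0136), with 74.7, 73.7 and 61.4 CPM in bladder E18.5, 85.99, 88.9 and 78.96 CPM in urethral E18.5, 104, 120.0 and 124 CPM in bladder E14.5, and 123, 104 and 122 CPM in urethral E14.5 libraries. Stages did not overlap. The urethral call was lost without urethral replicate 3 of either stage (adjusted p 0.0592 and 0.0653). Foxk1, its relative, averaged 80.8 to 92.8 CPM over the groups and was called in 0 comparisons.

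Foxj2 had 53.3, 48.1 and 39.6 CPM in bladder E18.5, 44.8, 49.6 and 39.1 CPM in urethral E18.5, 34.5, 35.4 and 31.9 CPM in bladder E14.5, and 36.8, 32.7 and 36.1 CPM in urethral E14.5 libraries. It was 0.47 ± 0.13 higher at E18.5 in bladder (adjusted p = 0.0113), a call lost without bladder E18.5 replicate 1 (adjusted p = 0.0519). Foxj3 had 71.6, 64.5 and 68.7 CPM in bladder E18.5 against 78.0, 70.9 and 75.2 CPM in urethral E18.5 libraries, which overlapped. At E14.5 it had 63.3, 69.5 and 63.9 CPM in bladder against 85.7, 79.3 and 92.2 CPM in urethral libraries (-0.39 ± 0.10, adjusted p = 0.0128), with no overlap, a call lost without bladder or urethral E14.5 replicate 3 (adjusted p 0.052 and 0.059).

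Foxj1, the master gene of motile cilia, averaged 1.01 to 1.67 CPM over the groups and was called in 0 comparisons. Of 19 motile cilia genes described as its targets, 15 were tested. Between compartments 2 were called higher and 5 lower in bladder at E18.5 (46.7% in either direction, against 34.8% of all genes) and 1 higher and 2 lower at E14.5 (20% against 24.9%). Between stages 4 were called higher and 2 lower at E18.5 in each compartment (40%, against 45.7% of all genes in bladder and 24.4% in urethral mesenchyme). The dynein gene Dnaic1 led the called genes at E18.5, with 13.2 ± 2.12 CPM in bladder E18.5 against 1.78 ± 1.11 CPM in urethral E18.5 libraries (2.86, adjusted p = 0.000807). Most called genes went the other way there, and the median log2 difference of the list was -0.82. Among them were Ccdc39 (-1.30, adjusted p = 0.00774) and Tppp3 (34.6 ± 12.1 against 74.3 ± 31.1 CPM, -1.10, adjusted p = 0.0281).

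Foxn2 was the gene called higher in bladder at E14.5, with 26.8, 41.7 and 40.8 CPM in bladder against 21.7, 23.2 and 24.1 CPM in urethral E14.5 libraries (0.66 ± 0.17, adjusted p = 0.0146) and no overlap. The call was lost without bladder E14.5 replicate 2 or 3 (adjusted p 0.062 and 0.0642). At E18.5 it had 31.8, 27.4 and 26.3 CPM in bladder against 23.2, 29.3 and 24.1 CPM in urethral libraries, which overlapped. Without bladder E14.5 replicate 1, Foxn2 was called lower at E18.5 in bladder (-0.52, adjusted p = 0.0108), which it was not with all libraries. Foxn3, a checkpoint factor, had 79.6, 67.1 and 62.1 CPM in bladder E18.5, 76.8, 64.6 and 65.3 CPM in urethral E18.5, 55.6, 59.6 and 48.6 CPM in bladder E14.5, and 69.2, 58.6 and 72.8 CPM in urethral E14.5 libraries. Its stage difference in bladder, 0.35 ± 0.13 (adjusted p = 0.0458), sat at the threshold and was lost in 13 of 20 alternatives.

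Foxd1, a marker of kidney stroma, was low. It had 0.187, 0.268 and 0.128 CPM in bladder E18.5, 0.634, 0.901 and 1.23 CPM in urethral E18.5, 1.97, 0.0829 and 0.649 CPM in bladder E14.5, and 3.37, 1.204 and 1.95 CPM in urethral E14.5 libraries. It fell by 2.22 ± 0.86 in bladder (adjusted p = 0.0496) with the stages overlapping, a call at the threshold that was lost in 14 of 19 alternatives. The difference was -0.93 (adjusted p = 0.368) without bladder E14.5 replicate 1 and -1.33 (adjusted p = 0.32) with limma-voom. At E18.5 the compartments did not overlap, and the difference of -2.27 ± 0.84 (adjusted p = 0.0538) was called with the replicate number as a block (-2.24, adjusted p = 0.0228). Without pairing it was called with DESeq2 (-2.30, adjusted p = 0.0209) but not with limma-voom. At E14.5 the compartment difference was -1.27 ± 0.71 (adjusted p = 0.21), and -2.57 (adjusted p = 0.0216) without bladder E14.5 replicate 1.

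Foxl2, a factor of ovary and pituitary, and Foxn1, a factor of thymus and hair follicle, stayed under 2 CPM on average in every group. Foxl2 averaged 0.21 ± 0.207 CPM in bladder against 1.99 ± 1.32 CPM in urethral E18.5 libraries (-3.14 ± 0.96, adjusted p = 0.0226) and 0.0565 ± 0.0489 CPM in bladder against 1.25 ± 1.51 CPM in urethral E14.5 libraries (-4.31 ± 1.19, adjusted p = 0.0211). With replicate 1 of both E14.5 groups left out, the E14.5 difference was -2.10 (adjusted p = 0.155). The Foxl2 call was lost in 3 of 20 alternatives at E18.5 and in 5 of 19 at E14.5. Its E18.5 difference was -2.44 (adjusted p = 0.0941) without urethral E18.5 replicate 1 and -4.42 without bladder E18.5 replicate 3, and its E14.5 difference was -2.61 (adjusted p = 0.0823) without urethral E14.5 replicate 1. The bladder E14.5 libraries held 4 counts of Foxl2 and 4 of Foxn1 in all, so these fitted differences are no bounds. Foxn1 averaged 0.178 ± 0.109 CPM in bladder against 0.925 ± 0.393 CPM in urethral E18.5 libraries (-2.26 ± 0.68, adjusted p = 0.02) and 0.0581 ± 0.0505 CPM in bladder against 0.674 ± 0.365 CPM in urethral E14.5 libraries (-3.44 ± 0.83, adjusted p = 0.0106), calls lost in 4 of 19 alternatives at E18.5 and in 0 of 18 at E14.5. Foxi1, a factor of ion-transporting epithelial cells, averaged 0.0305 to 0.935 CPM over the groups and was called in 0 comparisons.

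The 14 genes below the filter were close to silent at this depth. Foxe1, of thyroid and palate, reached 12 counts in urethral E18.5 replicate 1 and 35 counts over the 12 libraries. Foxp3, the factor of regulatory T cells, summed to 18 counts, and Foxr2 to 13. Foxa3, Foxb1, Foxb2, Foxd4, Foxe3, Foxh1, Foxi2, Foxi3, Foxn4 and Foxr1 summed to 2 to 8 counts each.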

How the data were processed

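Poly(A) RNA from 12 mesenchyme libraries (3 per group, 1 per litter) was sequenced in pairs, per the labels. Per the submitters' processing notes, bcl2fastq, HISAT2 2.2.1 and SAMtools 1.9 were used with GRCm38. The counting tool, annotation and strand setting are not given in the sources used here. The deposited tables, 1 per stage, hold raw counts per gene, per the file headers, with exon coordinates and length.

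From these counts, edgeR 4.0.16 (R 4.3.3) fitted 4 group means with TMM scaling and a robust quasi-likelihood test on the 18805 genes passing filterByExpr (minimum count 10), with 8 residual degrees of freedom, Benjamini-Hochberg adjustment and a threshold of 0.05. CPM per kilobase used the deposited exon length. The fit was tested on simulated data. Alternatives were DESeq2 1.42.0, limma-voom (limma 3.58.1), DESeq2 size factors, other filters, each library left out, replicate 1 of both E14.5 groups left out, only the libraries compared, and a replicate block.

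Replicate pairs differed beyond counting noise (chi-square per gene 15 to 79.5). Residuals of same-numbered E18.5 libraries correlated at 0.197, 0.193 and 0.286, so numbers were taken to pair them. At E14.5 (0.191, -0.0285 and 0.206) no pairing was inferred, yet the replicate block also held the E14.5 numbers. For the compartment differences and their change, the block was fitted within each stage. For the stage comparisons a block joined the same number across stages, although the stages cannot share a litter. The pairing comes from these data, with litters shared between compartments per the labels.

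The members and gene lists were chosen with earlier results of these data known. Values in every library are given for members that passed the filter, averaged at least 2 CPM in their highest group and were called at least once. Of pathway lists, up to 3 called genes with the largest change and at least 5 CPM and the most abundant gene not called qualified for naming. Some items that the rule would name are not reported here.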

Additional observations from a re-analysis of the deposited data

Results flagged for a closer look

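The compartment difference of Foxp2 differed between the stages by a test of that difference itself. The log2 difference, bladder minus urethral mesenchyme, was -0.37 ± 0.19 at E18.5 and -1.58 ± 0.20 at E14.5, and its change was 1.21 ± 0.27 (SE, edgeR adjusted p = 0.0179). The call held in 19 of 19 alternatives, with a highest adjusted p of 0.0489. Both stages use 3 libraries of each compartment, and the urethral E14.5 libraries, at 199, 143 and 258 CPM, hold the high values.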

How the results depend on the processing

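Of 51 calls of single members, 32 were kept in every one of the 20 alternatives that gave a value, 19 were lost in at least 1 and 0 reversed. Counts of members higher in urethral mesenchyme, and of members in the bladder stage comparison, stayed within 1.5 times the reported count, except 7 in place of 11 at E14.5 without bladder E14.5 replicate 3. The count higher in bladder at E14.5, reported as 1, was 2 with limma-voom, 2 with the stricter filter (29 members tested) and 2 with the replicate block. The count higher in bladder at E18.5, reported as 2, was 4 with limma-voom, 4 with replicate 1 of both E14.5 groups left out and 4 with only the libraries compared. Differences more positive at E18.5, reported as 1, were 2 with DESeq2, 2 with limma-voom, 4 with both replicates 1 left out and 3 with the replicate block; more negative ones, reported as 0, were 1 with DESeq2 and 1 with the block. Members higher at E18.5 in urethral mesenchyme, reported as 1, were 2 with DESeq2, 4 with limma-voom, 6 with both replicates 1 left out and 3 with only the libraries compared. Leaving out each library in turn gave 0 to 2 higher in bladder and 7 to 14 higher in urethral mesenchyme at E14.5, 1 to 4 higher in bladder at E18.5, 1 to 5 changes more positive and 0 to 1 more negative, and 1 to 4 higher at E18.5 in urethral mesenchyme. The cause was not tested.

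With the replicate number as a block, Foxp2 changed by 1.18 (adjusted p = 0.0306). The block also brought calls of Foxo4 at E14.5 (0.39, adjusted p = 0.0356) and of the change for Foxc1 (0.77), Foxo6 (-1.01) and Foxq1 (3.25), and in bladder lost the stage calls of Foxd1 (-1.96, adjusted p = 0.0842) and Foxn3 (0.34, adjusted p = 0.0507). Beyond these and the Foxq1 and Foxd1 values given at E18.5, the block changed no other call of a member. The Foxo4 call and the calls of the change use the E14.5 numbers, for which no pairing was inferred. Without pairing, limma-voom also called Foxo4 at E14.5 (0.39, adjusted p = 0.0465).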
